A study of Mus musculus with 16 samples.

Results

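The genes described here are 35 genes of growing neurons: 4 stathmins, 6 tubulins, 5 microtubule-associated proteins, 5 collapsin response mediator proteins (CRMPs), 8 growth cone membrane and actin proteins, 4 transcription factors and 3 Hu RNA-binding proteins. They were taken by gene symbol, and all 35 had a probe on the array, on 37 of its 24107 probes and among 18498 named genes. Elavl3 and Sox11 had 2 probes each and the other genes 1 probe. The 16 arrays compared, each with a pair of dyes, control mice (Ctrl in the labels) with mice labelled Stagerrer mutant (Stg), all of the C57BL/6 strain and taken at postnatal days 5 to 6. The staggerer allele is an intragenic deletion in Rora, which encodes the orphan nuclear receptor RORα, and it is carried in every cell, so the loss is not limited to the dissected regions. Whether the controls were wild-type or heterozygous littermates, and how many animals stood behind an RNA, is not given in the sources used here. Tissue of 4 numbered litters came from the ventrobasal nucleus of the thalamus (VB), the somatosensory relay, and from the somatosensory cortex, and for each litter and tissue a dye-swapped pair of arrays was made. In each tissue 4 arrays thus held control RNA in Cy5 and 4 held mutant RNA in Cy5.

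Neurons that extend axons and dendrites assemble microtubules from α- and β-tubulin, and stathmins bind tubulin dimers and set how much is free to polymerize. Microtubule-associated proteins of the doublecortin and MAP families bundle and stabilise the shaft, CRMPs carry tubulin to growing ends, and GAP-43, BASP1 and the MARCKS proteins tie the growth cone membrane to actin. SOX4, SOX11 and the NEUROD factors drive the programme of differentiating neurons, and the Hu proteins stabilise its mRNAs. At this age thalamic axons have entered layer 4 and the barrels of the somatosensory cortex are forming, so both tissues hold neurons that are still growing.

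Each deposited value is a normalized log ratio of the channels of 1 array, read here as log2 since the base is not stated, and the numerator of the ratio is not stated either. Every gene is therefore described by a pair of measures per litter. The dye-pair mean averages the swapped arrays of a litter and is the genotype ratio if the columns were already turned to run 1 way. If the columns are Cy5 over Cy3, the genotype cancels in this mean and it is a dye effect. The half-difference between dye assignments is the array with control RNA in Cy5 minus the array with mutant RNA in Cy5, divided by 2. It is the log2 ratio of control over mutant if the columns are Cy5 over Cy3, and a dye effect if they were already turned. Values are therefore given by their sign, and no direction is given for the mutant. A call is an adjusted p under 0.05 in limma, with the Benjamini-Hochberg adjustment over all features of the tissue. Arrays held 17711 to 22580 values, and channel intensities were not used here, so levels and the markers of the dissected tissues could not be compared. Of the 35 genes, 29 were tested in VB and 34 in cortex, where at least 3 of the 4 litters had both arrays. In VB, Tubb2a, Crmp1, Nnat and Elavl4 had 2 such litters and Dpysl3 and Tmsb10 none, and in cortex Tubb2b had 2. The probe of Rora itself had a dye-pair mean of -0.13 ± 0.12 in VB (SD, n = 4, adjusted p = 0.554) and -0.45 ± 0.26 in cortex (SD, n = 3, adjusted p = 0.357). Its half-difference was -0.42 ± 0.20 in VB (SD, n = 4, adjusted p = 0.00471) and 0.13 ± 0.29 in cortex (SD, n = 3, adjusted p = 0.755). Whether this probe lies in the deleted stretch is not known from the sources used here, so it is no check of the labels. In bulk tissue, fewer cells of a type and less RNA per cell cannot be told apart.

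In cortex the dye-pair means of these genes leaned to positive values. Of 34 tested genes 23 were positive and 11 negative (49.1% of all cortex features were positive), with a median of 0.15 against -0.0032 over all features. After adjustment 1 of the 34 was called, Stmn1, on the positive side, where 0.0605% of all features were called, 0.0182% as positive and 0.0424% as negative. At an unadjusted p under 0.05 the count was 14 of 34 (41.2%), 12 positive and 2 negative, against 7.9% of all cortex features. The members were chosen with earlier results of these data known, so such shares, here and below, are descriptions and not a test of the list. The 12 were Stmn1, Stmn2, 5 tubulins, Crmp1, Cd24a, Nnat, Neurod6 and Elavl2, and the 2 negative genes were Sox4 and Neurod1. Litters differed in how firmly this stood. With litter 4 left out, 5 members passed the adjustment (Stmn1, Stmn2, Tubb3, Tubb2a and Tuba1b) and 169 of all features did, whereas without litter 1 no feature was called and without litter 2 a single one. In VB the dye-pair means were near 0, with 14 genes positive and 15 negative (52.5% of all VB features were positive) and a median of -0.010 against 0.0057 over all features. Of the 29 VB genes 1 was called, Marcksl1, on the positive side, against 0.317% of all VB features, 0.23% as positive and 0.0871% as negative. At an unadjusted p under 0.05 there were 4 of 29 (13.8%; Stmn1 and Marcksl1 positive, Stmn3 and Mapt negative), against 10.2% of all VB features.

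**Figure D1:**
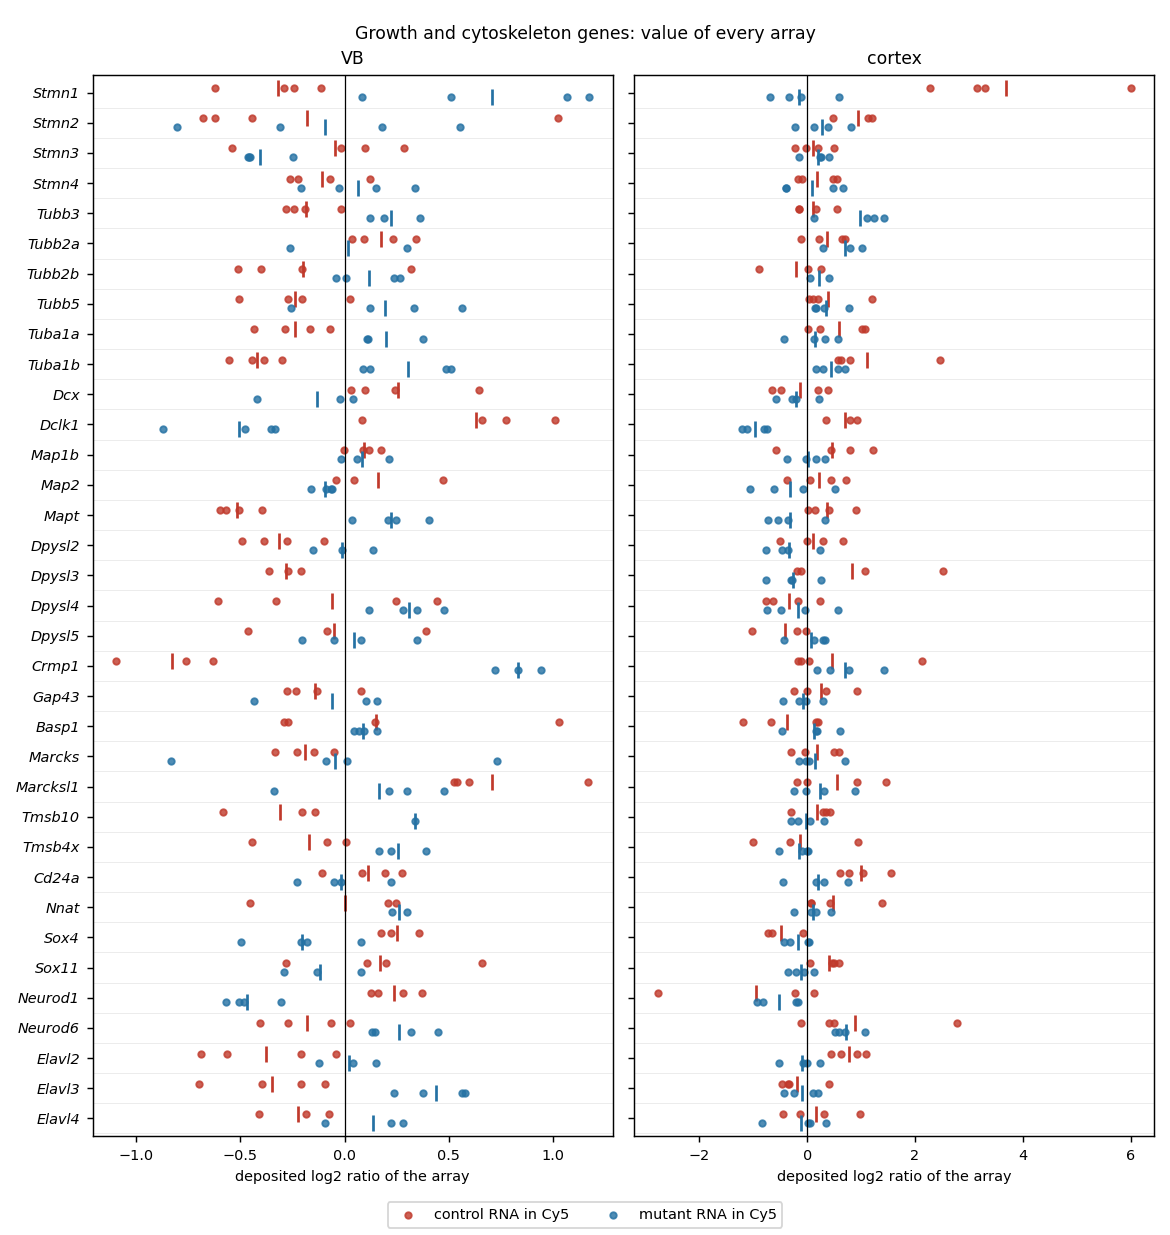
Deposited log2 ratio (x axis) of each of the 35 genes (rows) on every array, VB left and cortex right. Points are arrays with control RNA in Cy5 (red) or mutant RNA in Cy5 (blue), and ticks are their means. Stmn1 in cortex reaches 6.00 with control RNA in Cy5, and the tubulin rows in cortex lie mostly right of 0.

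Among the stathmins, Stmn1, the founding member that binds free tubulin dimers and is turned off by phosphorylation, had the highest cortex values of the whole list. Its cortex ratios in litters 1 to 4 were 6.00, 3.14, 2.27 and 3.30 with control RNA in Cy5 and 0.58, -0.34, -0.70 and -0.12 with mutant RNA in Cy5. Every array with control RNA in Cy5 lay above 2 and above every array with the dyes reversed, where 3 of 4 values were negative. The dye-pair mean was 1.77 ± 1.07 (SD, n = 4), a 3.4-fold ratio in base 2, with an adjusted p of 0.0439, and the half-difference was 1.91 ± 0.54 (SD, n = 4) with an adjusted p of 3.69e-07. The call on the dye-pair mean ended without litter 1 (1.26, adjusted p = 0.0528), without litter 2 (adjusted p = 0.141), after quantile normalization (0.155) and with robust variance (0.589), and with mutant RNA in Cy5 alone the mean was -0.14. In VB the same gene ran the other way between dye assignments, with -0.62, -0.29, -0.25 and -0.11 with control RNA in Cy5 and 1.17, 0.51, 1.07 and 0.09 with mutant RNA in Cy5. All 4 control-in-Cy5 values were negative and all 4 mutant-in-Cy5 values positive, giving a half-difference of -0.51 ± 0.34 (SD, n = 4), adjusted p = 0.00779, and a dye-pair mean of 0.20 ± 0.19, adjusted p = 0.44.

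Stmn2 (SCG10), the membrane-bound stathmin of growth cones, gave cortex values of 1.14, 1.21 and 0.48 in litters 1, 2 and 4 with control RNA in Cy5 and 0.39, 0.13, 0.82 and -0.23 with mutant RNA in Cy5. Of these 7 values 6 were positive, with a dye-pair mean of 0.52 ± 0.35 (SD, n = 3) and an adjusted p of 0.309. VB values of Stmn2 spread from -0.80 to 1.03, both signs occurred in each dye assignment, and the mean was -0.14 ± 0.57. Stmn3 (SCLIP), another membrane-bound stathmin, was negative in every litter of VB, where the dye-pair mean was -0.23 ± 0.13 (SD, n = 4), and positive in every litter of cortex, at 0.15 ± 0.10 (SD, n = 4). Neither mean passed the adjustment (adjusted p = 0.321 and 0.794). Stmn4 (RB3) had means of -0.02 ± 0.19 in VB and 0.14 ± 0.47 in cortex, and in cortex litters 1 and 3 were positive on both arrays and litters 2 and 4 negative on both. All 4 stathmins were positive in cortex, with a median of 0.33 and 20 of 31 array values positive.

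The tubulins were the group with the most even picture in cortex. All 5 tested tubulins had positive dye-pair means, 35 of their 39 array values were positive, and the median was 0.54. None passed the adjustment, and all 5 had an unadjusted p under 0.05, against 7.9% of all features. In 4 of the 5, Tubb3, Tubb2a, Tubb5 and Tuba1b, every litter with both arrays was positive, which held for 9.8% of all cortex features, while 10.5% were negative in every litter. Tuba1b, an α-tubulin expressed in most cells, had cortex values of 2.47, 0.63, 0.57 and 0.79 with control RNA in Cy5 and 0.71, 0.16, 0.29 and 0.58 with mutant RNA in Cy5. All 8 were positive, litter 1 stood highest, and the mean was 0.77 ± 0.56 (SD, n = 4), adjusted p = 0.164. Tubb5, a β-tubulin of progenitors and neurons, was also positive on all 8 arrays, with 0.03, 0.20, 1.21 and 0.10 with control RNA in Cy5 and 0.17, 0.31, 0.77 and 0.15 with mutant RNA in Cy5, and a mean of 0.37 ± 0.42 (adjusted p = 0.54). These were 2 of the 27 members with 8 cortex arrays (7.41%), against 0.54% of all features with 8 arrays.

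Tubb3, the β-tubulin used as a marker of neurons, gave -0.16, -0.15, 0.16 and 0.56 with control RNA in Cy5 and 1.42, 1.11, 1.24 and 0.13 with mutant RNA in Cy5 in cortex. Its positive mean of 0.54 ± 0.16 (SD, n = 4) came mainly from the mutant-in-Cy5 arrays, and the adjusted p was 0.138. Tubb2a, a neuronal β-tubulin, had a mean of 0.55 ± 0.41 (SD, n = 3) with 6 of 7 values positive, and Tuba1a, the main α-tubulin of young neurons, 0.37 ± 0.44 (SD, n = 4) with 7 of 8 positive and litter 4 alone negative. Tubb2b, whose human homologue is mutated in cortical malformations, had 2 complete cortex litters with a mean of 0.18 and was not tested there. In VB the tubulins showed no such lean: 1 of 5 tested means was positive, their median was -0.033, and 18 of 38 array values were positive. What the VB tubulins shared was the sign of the half-difference, which was negative in all 5 (median -0.22). Of these 5 half-differences 1 was called, that of Tuba1b, against 17.3% of all VB features. Its VB values were -0.55, -0.39, -0.44 and -0.30 with control RNA in Cy5 and 0.12, 0.51, 0.49 and 0.09 with mutant RNA in Cy5. The half-difference was -0.36 ± 0.12 (SD, n = 4), adjusted p = 0.00557. Tubb3 (-0.19 ± 0.01), Tubb5 (-0.22 ± 0.23) and Tuba1a (-0.23 ± 0.04) also had an unadjusted p under 0.05, against 32.5% of all VB features. Their adjusted p values were 0.11, 0.109 and 0.0653. Tubb2b in VB had a half-difference of -0.16 ± 0.21, and the 2 complete litters of Tubb2a one of 0.06 ± 0.13. Some tubulin genes are close copies of each other, and without the probe sequences it is uncertain how far the signals of such copies are separate.

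**Figure D2:**
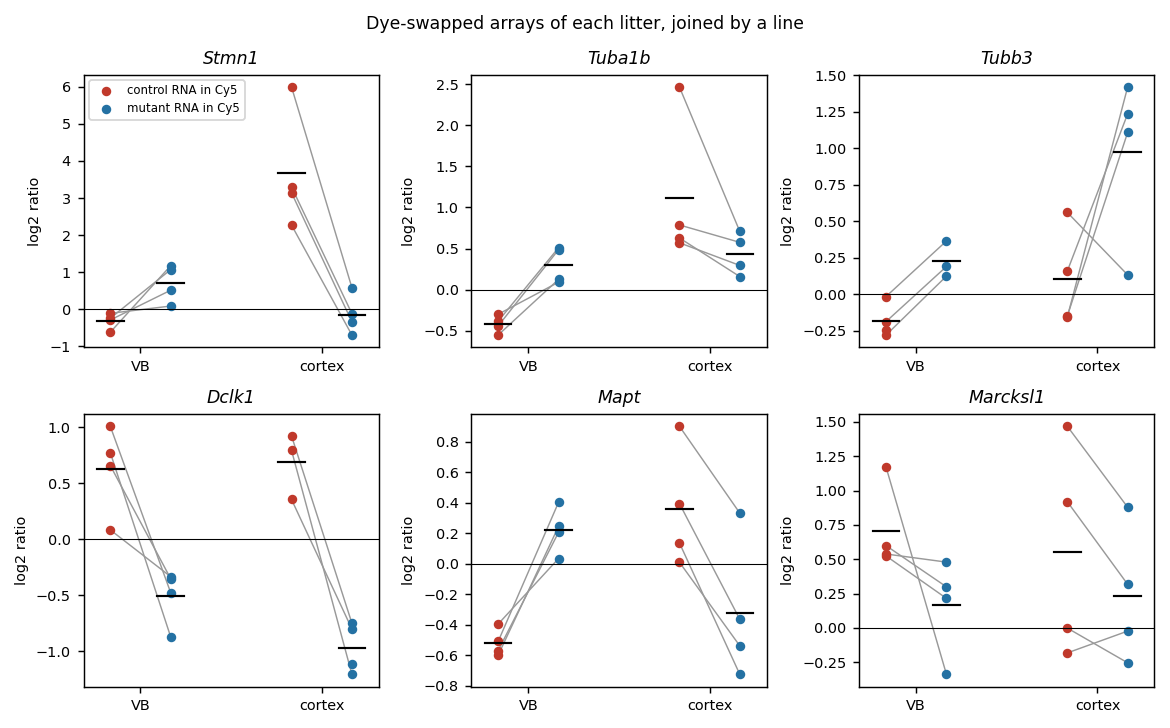
Log2 ratio (y axis) of 6 genes in VB and cortex. Each grey line joins the swapped arrays of a litter, red with control RNA in Cy5 and blue with mutant RNA in Cy5, and black bars are means over litters. Tuba1b lies above 0 on all 8 cortex arrays, and the Dclk1 lines fall from red to blue in every complete litter of both tissues.

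The microtubule-associated proteins had no shared sign of the dye-pair mean in cortex, with 2 positive and 3 negative, and no gene of the 5 was called on it in either tissue. On the half-difference 2 of the 5 were called in VB (Dclk1 and Mapt) and 1 in cortex (Dclk1), where 17.3% and 1.53% of all features were called. Dclk1, a kinase with doublecortin domains, gave 0.09, 0.78, 0.66 and 1.01 with control RNA in Cy5 and -0.33, -0.87, -0.35 and -0.48 with mutant RNA in Cy5 in VB. In cortex the values were 0.36, 0.93 and 0.80 in litters 1, 2 and 3 with control RNA in Cy5 and -0.80, -0.75, -1.21 and -1.12 with mutant RNA in Cy5. On all 15 arrays the value was positive with control RNA in Cy5 and negative with mutant RNA in Cy5, so the groups did not overlap in either tissue. Among all features with 8 arrays, control-in-Cy5 values lay wholly above mutant-in-Cy5 values in 14.3% in VB and 4.54% in cortex. Dclk1 had 7 arrays in cortex, so the cortex share does not cover it. The half-difference was 0.57 ± 0.28 (SD, n = 4) in VB (adjusted p = 0.00201) and 0.81 ± 0.21 (SD, n = 3) in cortex (adjusted p = 0.00247), while the dye-pair means were 0.06 ± 0.18 and -0.11 ± 0.17. Mapt, the gene of tau, had VB values of -0.57, -0.60, -0.51 and -0.40 with control RNA in Cy5 and 0.21, 0.25, 0.40 and 0.04 with mutant RNA in Cy5. Here the sign was the opposite of that of Dclk1, with a half-difference of -0.37 ± 0.11 (SD, n = 4), adjusted p = 0.00424. In cortex Mapt gave 0.14, 0.40, 0.01 and 0.90 with control RNA in Cy5 and -0.73, -0.36, -0.54 and 0.33 with mutant RNA in Cy5, and its half-difference of 0.34 ± 0.08 was positive in each litter (adjusted p = 0.126). Dcx, the doublecortin of migrating neurons, had dye-pair means of 0.06 ± 0.04 in VB and -0.18 ± 0.38 in cortex, where 5 of 8 values were negative. Map1b, a MAP of growing axons, had 0.09 ± 0.06 in VB and 0.24 ± 0.38 in cortex. Map2, the dendritic MAP, had 0.03 ± 0.15 and -0.05 ± 0.58, and in cortex litter 3 was the lowest and litter 4 the highest of its litters.

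RORα binds the half-site AGGTCA, so the 250 bases upstream of the start of each gene were searched for these letters on both strands. RefSeq promoters (GRCm38.p6) were at hand for 24 of the 35 genes, 37 promoters in all, and 5 of the 37 held the half-site, in Crmp1, Dclk1, Elavl4 and Sox4, against 14.0% of 32851 promoters. TAGGTCA, which extends the half-site, was in 0 of the 37 (2.23% of all promoters), and the separately searched TGGGTCA was in 4, all of them promoters of Elavl2 (3.24% of all promoters). Promoters of 1 gene can overlap, so the same TGGGTCA of Elavl2 and the same AGGTCA of Elavl4 were counted in more than 1 promoter. The counts of promoters are therefore higher than those of distinct sites. A match is a description of letters and not a bound site. An upstream sequence of Dclk1 (chr3:55242114-55242363, plus strand) and that of Sox4 (chr13:28953700-28953949, minus strand) are printed since they hold a half-site, in capitals, 105 and 162 bases before the start. In Dclk1 the half-site is on the opposite strand, so the printed letters are TGACCT. A downstream start of Dclk1 (chr3:55461478-55461727, plus strand) had a promoter without the half-site. The upstream sequences of Tuba1b (chr15:98934391-98934640, minus strand, 75.6% G and C) and Tubb5 (chr17:35838302-35838551, minus strand, 49.2%), the genes that were positive on all 8 cortex arrays, hold none. All read 5′ to 3′ toward the start.
Dclk1: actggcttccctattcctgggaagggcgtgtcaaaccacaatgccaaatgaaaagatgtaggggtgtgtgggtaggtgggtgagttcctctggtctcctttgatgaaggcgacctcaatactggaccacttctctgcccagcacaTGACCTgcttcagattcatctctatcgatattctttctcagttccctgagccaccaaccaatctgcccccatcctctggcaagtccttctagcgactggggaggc
Sox4: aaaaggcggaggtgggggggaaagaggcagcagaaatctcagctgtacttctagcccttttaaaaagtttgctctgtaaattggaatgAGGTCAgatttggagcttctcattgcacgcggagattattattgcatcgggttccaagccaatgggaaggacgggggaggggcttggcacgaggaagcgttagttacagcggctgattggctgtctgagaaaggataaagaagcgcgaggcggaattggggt
Tuba1b: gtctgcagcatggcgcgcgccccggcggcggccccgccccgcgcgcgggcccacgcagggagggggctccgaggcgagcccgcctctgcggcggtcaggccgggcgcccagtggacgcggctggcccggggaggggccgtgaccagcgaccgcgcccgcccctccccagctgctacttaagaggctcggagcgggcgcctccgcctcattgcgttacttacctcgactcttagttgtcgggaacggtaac
Tubb5: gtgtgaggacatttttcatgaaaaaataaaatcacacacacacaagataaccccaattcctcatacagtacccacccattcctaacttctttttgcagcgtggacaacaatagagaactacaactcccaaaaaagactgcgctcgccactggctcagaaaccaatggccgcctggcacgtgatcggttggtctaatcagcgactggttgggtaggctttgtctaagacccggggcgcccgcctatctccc

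The CRMPs were split. In cortex 2 of 5 dye-pair means were positive and 3 negative, none was called, and 17 of 39 array values were positive. Crmp1, which links semaphorin signals to the cytoskeleton, gave -0.18, -0.12, 2.12 and 0.04 with control RNA in Cy5 and 0.43, 0.77, 1.42 and 0.18 with mutant RNA in Cy5, of which litter 3 was the highest in both assignments. Its mean was 0.58 ± 0.80 (SD, n = 4), with an adjusted p of 0.531. Dpysl3 (CRMP4) rested in the same way on litters 3 and 4 with control RNA in Cy5, at 2.52 and 1.08, beside 6 values between -0.77 and 0.26, and its mean was 0.28 ± 0.74. Dpysl2 (CRMP2), which carries tubulin dimers to growing axon ends, had a cortex mean of -0.11 ± 0.18 and a VB mean of -0.17 ± 0.16, with 6 of 7 VB values negative. Dpysl4 had -0.26 ± 0.52 in cortex and 0.12 ± 0.25 in VB, and Dpysl5 -0.21 ± 0.25 and -0.01 ± 0.33. In VB, Crmp1 was not tested, and its available array values split by dye assignment. They were -1.10, -0.63 and -0.76 in litters 2, 3 and 4 with control RNA in Cy5. With mutant RNA in Cy5 they were 0.94, 0.72 and 0.83 in litters 1, 3 and 4. The shares of all features with such a split, given elsewhere, cover only features with a value on every array of the tissue. They do not cover Crmp1, so how common its split is was not tested. Among all tested VB features 17.3% were called on the half-difference. Dpysl3 had values in VB only with control RNA in Cy5, -0.27, -0.21 and -0.37 in litters 2, 3 and 4, so no dye pair could be formed.

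Marcksl1, a small MARCKS family protein that binds actin and calmodulin, was the gene called on the dye-pair mean in VB. Its values were 0.60, 0.52, 0.54 and 1.17 with control RNA in Cy5 and 0.30, 0.22, 0.48 and -0.34 with mutant RNA in Cy5. Of the 8 values 7 were positive, the exception being litter 4 with mutant RNA in Cy5, and the dye-pair means of the litters lay between 0.37 and 0.51. The mean was 0.44 ± 0.06 (SD, n = 4), a 1.35-fold ratio in base 2, with a 95% interval of 0.29 to 0.58 and an adjusted p of 0.0208. The call ended without litter 1 (0.43, adjusted p = 0.0784), litter 2 (0.46, 0.0522) or litter 3 (0.41, 0.0803), and after quantile normalization (0.40, 0.0907). With 1 fit of both tissues the adjusted p was 0.773. In cortex Marcksl1 gave 0.92, -0.001, 1.47 and -0.18 with control RNA in Cy5 and 0.32, -0.25, 0.88 and -0.02 with mutant RNA in Cy5, positive in litters 1 and 3 and at or below 0 in litters 2 and 4 on both arrays. That mean was 0.39 ± 0.63, adjusted p = 0.635. Marcks, the parent protein that binds membrane and actin, followed the same litters in cortex (0.16 ± 0.37) and was at -0.12 ± 0.29 in VB.

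Cd24a, a surface glycoprotein of newborn neurons, had cortex values of 1.55, 0.61, 1.04 and 0.77 with control RNA in Cy5 and 0.16, -0.45, 0.30 and 0.77 with mutant RNA in Cy5. Its mean was 0.59 ± 0.35 (SD, n = 4), adjusted p = 0.169, and in VB it was 0.05 ± 0.15. Nnat, a small membrane proteolipid of the developing brain, was positive on 7 of 8 cortex arrays with a mean of 0.30 ± 0.24 (adjusted p = 0.547), and its highest value, 1.38, was that of litter 2 with control RNA in Cy5. Gap43, the growth-associated protein of axon terminals, had 0.08 ± 0.40 in cortex and -0.14 ± 0.13 in VB, where each of the 3 complete litters was negative. Basp1, its partner under the growth cone membrane, had -0.13 ± 0.20 and 0.12 ± 0.29. The thymosins sequester actin monomers: Tmsb4x had -0.15 ± 0.54 in cortex and 0.04 ± 0.14 in VB, and Tmsb10 0.08 ± 0.18 in cortex, with no complete VB litter. For Gap43 in cortex the 95% interval was -0.22 to 0.39, which includes 0. Over the whole group 6 of 8 cortex means and 4 of 6 VB means were positive.

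The transcription factors went different ways in cortex. Neurod6, of postmitotic excitatory neurons of the cortex, gave -0.12, 0.50, 0.41 and 2.77 with control RNA in Cy5 and 0.52, 0.58, 0.69 and 1.07 with mutant RNA in Cy5. Of 8 values 7 were positive, each litter's dye pair was positive, litter 4 stood highest, and the mean was 0.80 ± 0.76 (SD, n = 4) with an adjusted p of 0.26. Neurod1, a related factor of neuronal differentiation, gave 0.13, -0.22 and -2.77 in litters 1, 3 and 4 with control RNA in Cy5 and -0.18, -0.92, -0.20 and -0.82 with mutant RNA in Cy5. Of 7 values 6 were negative, litter 4 the lowest, and the mean was -0.68 ± 0.97 (SD, n = 3), adjusted p = 0.536. Sox4 was negative in its 3 complete cortex litters (-0.37 ± 0.20, adjusted p = 0.515), and Sox11, its close relative, positive in all 4 (0.14 ± 0.13, adjusted p = 0.806). The 2 probes of Sox11 had cortex means of 0.11 and 0.18, and in VB 0.27 and -0.12. In VB the dye-pair means of the 4 lay between -0.12 (Neurod1) and 0.04 (Sox11). Neurod1 in VB was positive on each array with control RNA in Cy5 (0.16, 0.28, 0.37 and 0.13) and negative on each with mutant RNA in Cy5 (-0.31, -0.57, -0.48 and -0.51). Of all VB features with 8 arrays, 14.3% had control-in-Cy5 values wholly above mutant-in-Cy5 values. The half-difference of Neurod1 was 0.35 ± 0.09 (SD, n = 4), adjusted p = 0.00517. Neurod6 ran the other way (-0.22 ± 0.11 (SD, n = 4), adjusted p = 0.0498), a call that ended without litter 1, 2 or 3 (adjusted p = 0.141, 0.138 and 0.148). Sox4 (0.23 ± 0.14) and Sox11 (0.16 ± 0.09) had half-differences in VB that were not called. The 2 probes of Sox11 differed there, at -0.002 ± 0.11 (SD, n = 2) and 0.25 ± 0.22 (SD, n = 3).

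Among the Hu proteins, which bind AU-rich mRNAs of neurons, Elavl2 (HuB) gave 0.45, 0.63, 0.92 and 1.10 with control RNA in Cy5 and -0.53, -0.08, -0.01 and 0.23 with mutant RNA in Cy5 in cortex. The dye assignments did not overlap, the half-difference was 0.44 ± 0.06 (SD, n = 4) with an adjusted p of 0.0415, and the dye-pair mean 0.34 ± 0.30 with an adjusted p of 0.523. The first call ended whichever litter was left out (adjusted p 0.0807 to 0.142), and after quantile normalization (0.0675). Elavl3 (HuC) gave -0.40, -0.10, -0.70 and -0.21 with control RNA in Cy5 and 0.24, 0.56, 0.38 and 0.58 with mutant RNA in Cy5 in VB, with a half-difference of -0.43 ± 0.06 (SD, n = 4), adjusted p = 0.00116, formed probe by probe. Its 2 probes had half-differences of -0.45 and -0.42 there, each from 2 litters, and no litter had a complete dye pair of both. Their VB dye-pair means were 0.12 and -0.21. The VB array values above are averages over the probes with a value, so they do not give that half-difference exactly. In cortex Elavl3 had a dye-pair mean of -0.14 ± 0.13, negative in each litter as an average of its 2 probes. The probes differed there, with dye-pair means of -0.29 ± 0.27 and 0.003 ± 0.28. Their cortex half-differences were -0.32 ± 0.41 and 0.23 ± 0.39. Elavl4 (HuD) had a cortex dye-pair mean of 0.03 ± 0.42. Elavl2 in VB had a dye-pair mean of -0.15 ± 0.14. Elavl4 had 2 complete VB litters, with a mean of 0.06 ± 0.02.

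Across the list, more genes passed on the half-difference than on the dye-pair mean, and in both tissues so did all features, 2785 against 51 in VB and 252 against 10 in cortex. In VB 7 of 29 members were called on it (24.1%), 2 positive (Dclk1, Neurod1) and 5 negative (Stmn1, Tuba1b, Mapt, Neurod6, Elavl3), against 17.3% of all features, 10.4% as positive and 6.97% as negative. At an unadjusted p under 0.05 there were 13 of 29 (44.8%), against 32.5% of all features. In cortex 3 of 34 were called (8.82%), all positive (Stmn1, Dclk1, Elavl2), against 1.53% of all features, 1.19% as positive and 0.333% as negative, and 11 of 34 (32.4%) had an unadjusted p under 0.05, against 12.9%. Counted over arrays, 3 of the 17 members with 8 VB arrays had every control-in-Cy5 value above every mutant-in-Cy5 value (Dclk1, Marcksl1, Neurod1; 14.3% of all features) and 5 below (Elavl3, Mapt, Neurod6, Stmn1, Tuba1b; 10.4%). In cortex 2 of 27 lay above (Elavl2, Stmn1; 4.54% of all features) and none below, where no share of all features is given here. On the dye-pair mean, 3 VB members were positive in every litter and 5 negative (13.1% and 11.3% of all VB features). In the same way 12 cortex members were positive and 3 negative (9.8% and 10.5% of all cortex features). The members called in VB on the half-difference had dye-pair means between -0.15 (Mapt) and 0.20 (Stmn1).

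**Figure D3:**
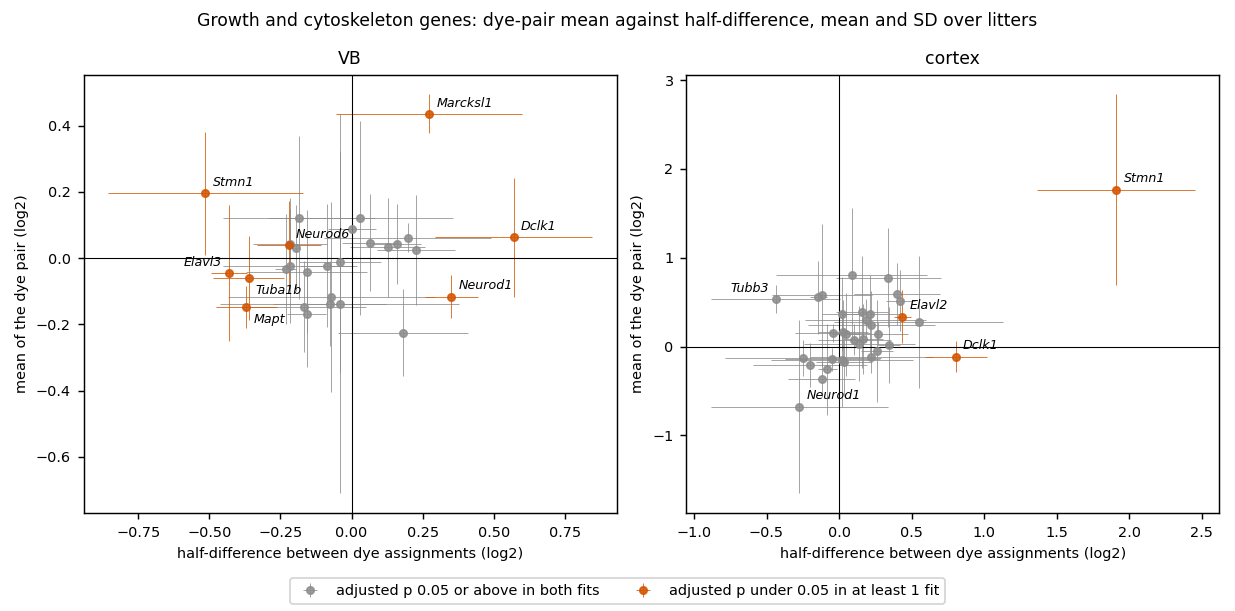
Dye-pair mean (y axis, log2) against the half-difference between dye assignments (x axis, log2) for the tested members, VB left and cortex right. Points are means over litters and lines are SD. Orange points had an adjusted p under 0.05 in at least 1 of the fits. Stmn1 in cortex stands far from the others, at 1.91 and 1.77.

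Set against each other, VB and cortex differed for 4 members on the half-difference and, after adjustment, for none on the dye-pair mean. Tissue and labelling method coincide, so a tissue difference and a method difference cannot be told apart. Of 28 members with enough litters in both tissues, 0 were called for VB minus cortex of the dye-pair mean in limma, and 10 had an unadjusted p under 0.05 (35.7%), against 0.0985% and 9.04% of all features. The differences largest in size were those of Stmn1, at -1.57 (95% interval -2.37 to -0.77), Tuba1b, at -0.83 (95% interval -1.29 to -0.37), and Neurod6, at -0.76 (95% interval -1.35 to -0.17), with adjusted p values of 0.205, 0.257 and 0.409. For Marcksl1, with like means in both tissues, it was 0.05 (95% interval -0.45 to 0.54). The same comparison of the half-difference, added after the data had been seen, called 4 of 28 members (14.3%), all negative, against 3.69% of all features, 1.58% as negative, and 10 had an unadjusted p under 0.05, against 18.2%. They were Stmn1, at -2.43 (95% interval -2.89 to -1.96) with an adjusted p of 3.11e-05, Mapt, at -0.71 (95% interval -0.96 to -0.47) with 0.00214, Tuba1b, at -0.70 (95% interval -1.04 to -0.37) with 0.0201, and Elavl2, at -0.60 (95% interval -0.89 to -0.32) with 0.0211. For each of them the half-difference was negative in every complete litter of VB and positive in every litter of cortex. Stmn1 and Mapt kept the call whichever litter was left out. Tuba1b lost it without litter 1 (-0.53), 2 or 3 (adjusted p 0.0644 to 0.0905), and Elavl2 without any 1 of the 4 (0.0591 to 0.148). Dclk1 was positive in both tissues.

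The litters were also compared by how the members deviated on their swapped arrays. For each array each gene's deviation from its 4-array mean within that dye assignment was taken and compared with that of the swapped array of the same litter. Over the 27 members with 8 cortex arrays, Spearman's rho across genes was 0.196, 0.0983, 0.679 and 0.424 in litters 1 to 4, a mean of 0.350. Over all 10001 cortex genes the mean was 0.0580. Between arrays of different litters the cortex members averaged -0.111, from -0.420 to 0.282, a range that holds the values of litters 1 and 2. In VB the 17 members with 8 arrays averaged -0.127 within litters, and all 8797 genes 0.0190. Between different litters the VB members averaged 0.0388, from -0.304 to 0.422. Genes of 1 array share the array, its dye and its RNA, so these are descriptions over genes without a test. Single genes show the litters: Marcksl1, Marcks and Stmn4 were positive in cortex litters 1 and 3 and negative in litters 2 and 4 on all their arrays, and the dye-pair means of Map2, Mapt and Gap43 were highest in litter 4.

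**Figure D4:**
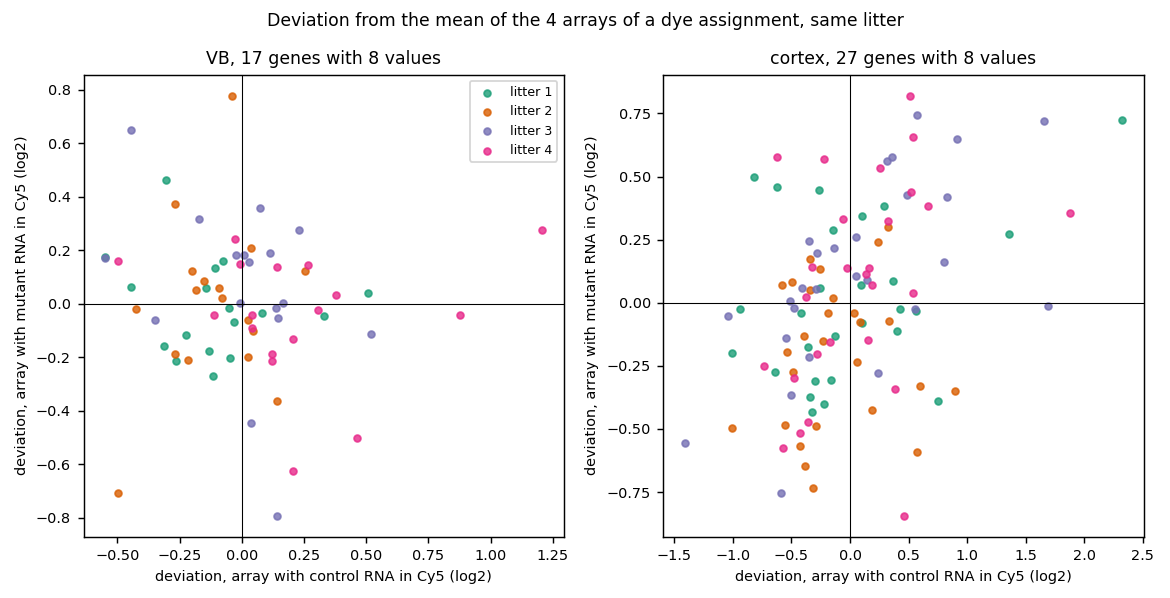
Deviation of each member from its mean over 4 arrays (log2), on the array with control RNA in Cy5 (x axis) and on the swapped array of the same litter (y axis), VB left and cortex right, coloured by litter. The cortex points of litters 3 and 4 rise along the diagonal (rho 0.679 and 0.424), and the VB points do not (17 genes, mean rho -0.127).

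Other genes of the same pathways, listed by function, lay on both sides of 0, with 50 positive and 45 negative dye-pair means in cortex and 39 and 39 in VB. None of 95 tested in cortex and none of 78 in VB was called on the dye-pair mean, and 14 and 7 had an unadjusted p under 0.05, against 7.9% of all cortex and 10.2% of all VB features. The median in cortex was -0.062 for 9 other tubulin genes, 0.016 for 28 other microtubule-associated genes and motors, 0.061 for 25 growth cone actin and adhesion genes, and -0.018 for 15 other transcription factors of newborn neurons. For 18 neurofilament and late neuronal genes it was -0.16, with 12 negative and 6 positive. Their list holds mainly markers of more mature neurons and shares a gene with the oligodendrocyte lineage list. Of these 18 genes 7 had an unadjusted p under 0.05, against 7.9% of all cortex features. On the half-difference, 12 of the 78 VB genes were called, a share no higher than the 17.3% of all VB features. Of the 12, 2 were positive and 10 negative, where 10.4% of all VB features were called as positive and 6.97% as negative. Among the negative ones were the tubulins Tuba8 (-0.48 ± 0.24, SD, n = 3, adjusted p = 0.00802) and Tube1 (-0.22 ± 0.034, n = 4, adjusted p = 0.0395). The kinesin Kif2a was negative in VB (-0.54 ± 0.23, n = 3, adjusted p = 0.00397) and positive in cortex (0.48 ± 0.21, n = 4, adjusted p = 0.0365), as was the factor Myt1l (-0.28 ± 0.078 and 0.43 ± 0.087). The profilins Pfn1 and Pfn2, which feed actin monomers to growing filaments, were at -0.22 and -0.25 in VB, and Tmod2, which caps actin filaments in neurons, was at 0.70 in cortex. Of the lists for other cell types, the cell cycle and progenitor genes had a cortex median of -0.12 (7 genes), the astrocyte and radial glia genes -0.11 (14), the oligodendrocyte lineage genes -0.0028 (7), the microglia genes -0.082 (6), the vascular and blood genes -0.083 (9) and the GABAergic neuron genes 0.028 (8). In VB the same medians were 0.0047, 0.030, -0.060, -0.066, -0.043 and -0.085. Called on the dye-pair mean were Gja1, the gap junction protein of astrocytes, in VB (-0.57 ± 0.11, adjusted p = 0.0086) and cortex (-0.93 ± 0.30, adjusted p = 0.0173), and Calb2 in VB (-0.41 ± 0.091, adjusted p = 0.0348). On the half-difference 11 of 57 genes of these lists were called in VB and 0 of 51 in cortex in limma, where 8 had an unadjusted p under 0.05, shares near the 17.3% and 1.53% called and the 12.9% at an unadjusted p under 0.05 among all features. The part of these cells in the members' ratios was not tested.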

How the data were processed

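Control and mutant RNA of the same litter were compared on 16 two-colour arrays. Per the labels' protocols, dyes were coupled to aminoallyl cDNA in cortex, while VB cDNA was first amplified by PCR and then labelled by Klenow polymerase. The deposited values are normalized log ratios, taken as log2. No source used here gives the log base, the numerator, the scanner or how spots were filtered, background-corrected and normalized. Signal over background is therefore unknown, and the number of arrays limits the precision.

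Probes were named through accession (15685 probes), symbol (2969) or synonym (1695), and 3738 had no symbol. The platform names of 6 member probes were older symbols. Probes of 1 symbol were averaged, and the dye-pair mean and the half-difference were formed per litter. Features with at least 3 of 4 litters were fitted with limma 3.58.1 in R 4.3.3 (eBayes, mean against 0, Benjamini-Hochberg over all features, 0.05). The code was tested on simulated data. VB minus cortex was fitted over the 8 litter values. Litter numbers are shared between the tissues, since the labels name the litter of each RNA, and the same-litter correlations of deviations were -0.0030, -0.016, -0.012 and 0.031, so the fit with litter as a replicate block is an alternative. All 35 members are named, and of the other listed genes only called ones. Members and lists were chosen with earlier results of these data known.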

Additional observations from a re-analysis of the deposited data

Results flagged for a closer look

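In 107 groups of 4 arrays (1 gene, 1 tissue, 1 dye assignment), 7 arrays stood apart from the other 3, where chance gives about 1 in 20 groups. With control RNA in Cy5 these were litter 3 of Crmp1 (2.12) and of Tubb5 (1.21), litter 2 of Elavl3 (0.41) and litter 1 of Tuba1b (2.47) in cortex, and litter 4 of Marcksl1 (1.17) and of Stmn2 (1.03) in VB. With mutant RNA in Cy5 it was litter 4 of Stmn3 in VB (-0.25).

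The half-difference between dye assignments had opposite signs in VB and cortex for 4 genes whose tissue difference was called in limma. VB minus cortex was -2.43 for Stmn1 (adjusted p = 3.11e-05), -0.71 for Mapt (0.00214), -0.70 for Tuba1b (0.0201) and -0.60 for Elavl2 (0.0211). The dye-pair mean of Stmn3 was negative in all 4 VB litters and positive in all 4 cortex litters, a difference of -0.38 that was not called (adjusted p = 0.343). Tissue and labelling method cannot be told apart in these differences.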

How the results depend on the processing

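Of the features called on the dye-pair mean, the main counts were 51 in VB and 10 in cortex. In VB quantile normalization gave 19, counting incomplete dye pairs 7, and 1 fit of both tissues 27. In cortex values in at least 2 litters gave 18, probes kept apart 16, leaving out values over 5 in size 17, incomplete pairs 2 and 1 fit of both tissues 31. Arrays of 1 dye assignment alone called far more, 1170 (mutant RNA in Cy5) and 1677 (control RNA in Cy5) in VB and 95 and 153 in cortex. Members called went from 1 to 0 in VB under quantile normalization, incomplete pairs and 1 fit, and to 6 and 5 with 1 assignment alone, in the order above. In cortex they went from 1 to 0 under quantile normalization, robust variance and incomplete pairs, and to 3, 2 and, with 1 fit, 2. Members at an unadjusted p under 0.05 went from 4 to 11, 15 and 2 in VB under the assignments and 1 fit. Of all VB features 24.2%, 25.2% and 5.38% were under it there, against 10.2% in the main fit. In cortex the members went from 14 to 8 with mutant RNA in Cy5 alone. There 10.7% of all features were under it, against 7.9% in the main fit. With mutant RNA in Cy5 alone, the sign turned for Dclk1 (-0.51) and Elavl3 (0.44) in VB and for Stmn1 (-0.14) in cortex. Values in all 4 litters lowered the VB half-difference count from 2785 to 1700. The cause of these shifts was not tested.

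Without each litter in turn, the VB dye-pair mean gave 32 to 156 features and 0 to 1 members called. At an unadjusted p under 0.05 it gave 2 to 5 members, against 8.02% to 11.4% of all VB features. Cortex gave 0 to 169 features and 0 to 5 members called. The half-difference gave 1821 to 2222 features in VB and 147 to 320 in cortex. VB minus cortex gave 1 to 14 features on the dye-pair mean, and 127 to 218 features and 2 to 3 members on the half-difference. With litter as a replicate block, VB minus cortex of the dye-pair mean called 16 features and 0 members. There 10 members had an unadjusted p under 0.05, against 8.29% of all features. The half-difference called 403 features and 4 members, so the block ended no member's call. Over all member values and alternatives, 1847 kept direction and side of the threshold, 29 lost a call, 18 gained one, and 95 changed sign without a call under either setting, beside the 3 turned signs above. Signal over background is unknown, so its effect on low ratios was not tested.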
